A study of Mus musculus with 12 samples.

Results

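A set of 44 gene symbols of the array made up the oxidoreductase families described here: 7 alcohol dehydrogenases (Adh), 20 aldehyde dehydrogenases (Aldh), 14 aldo-keto reductases (Akr) and 3 aldehyde oxidases (Aox), of 18194 genes tested. Members were all symbols that start with one of these names followed by a digit, with the bile acid enzyme Akr1d1 left out. Among probe sets tied to 1 symbol, the one with the highest mean level stood for each gene. The level of 31 members lay above the median level of all genes, 5.91 on the log2 scale, and the other 13 lay below it, where presence of the transcript was not tested. Akr1b3, aldose reductase, and Aldh3b3 were not analysed here, since no probe set was tied to either symbol alone.

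Alcohol dehydrogenases oxidise alcohols, among them ethanol and retinol, to aldehydes or ketones, and aldehyde dehydrogenases carry aldehydes on to acids. Aldo-keto reductases work mostly in the other direction and reduce carbonyl groups of sugars, steroids and lipid breakdown products with NADPH. Aldehyde oxidases are molybdenum and flavin enzymes that oxidise aldehydes and many nitrogen-containing ring compounds. The liver expresses all 4 families strongly and uses them on alcohol, drugs, vitamin A, steroids and the intermediates of amino acid breakdown.

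The tissue was liver of mice of the strain SV129XC57Bl/6, and every array carried a pool of RNA from 3 animals. The 12 arrays formed 4 groups of 3: control mice that were fasted, LG2KO mice that were fasted, control mice that were refed after a fast, and LG2KO mice that were refed after a fast. All LG2KO arrays were labelled as tamoxifen treated and no control array was, so genotype and tamoxifen cannot be told apart. LG2KO was read here as loss of the hepatic glucose transporter gene Slc2a2 (GLUT2). No label read here names the driver of the deletion or the sex and age of the animals. For the LG2KO fasted group 1 descriptive label mentions refeeding against the title and the diet label, and the group was kept as fasted. Pooling hides the spread between animals, so each p-value below reflects the spread between pools, and in whole liver fewer cells of a type and less RNA per cell cannot be told apart.

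The level of Slc2a2 was between 10.002 and 11.3 on the control arrays and between 3.56 and 4.13 on the LG2KO arrays. Control refed array 1 and LG2KO fasted array 3 stood apart: the 4 within-group pairs that held one of them had correlations of 0.984 to 0.988, and the other 8 pairs 0.994 to 0.996. The mean level of 7 hepatocyte markers lay between 13.4 and 13.7 on all 12 arrays. Marker lists of other cell types stood out on single arrays: 6 exocrine pancreas genes averaged 8.29 on control fasted array 3 (5.42 to 5.75 elsewhere), 3 adipose genes 6.90 on LG2KO refed array 2 (5.20 to 5.93) and 5 lymphocyte and neutrophil genes 6.51 on LG2KO refed array 3 (5.34 to 5.98). Their part in the results was not tested.

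The alcohol dehydrogenase genes lie together on mouse chromosome 3 in the RefSeq annotation of assembly GRCm38.p6. Their order is Adh7, Adh1, Adh6a, Adh6b, Adh6-ps1, Adh4 and Adh5, with 0 other protein-coding genes or transcribed pseudogenes between neighbours. Other kinds of gene were not counted. The promoters of Adh1, Adh4 and Adh5 are shown because these neighbours responded to refeeding in opposite directions, Adh1 and Adh4 upward and Adh5 downward. Each runs from 250 bases before to 50 bases after a RefSeq start on the plus strand of GRCm38.p6, with CpG dinucleotides in capitals. They are chr3:138277335-138277634 for Adh1, chr3:138415247-138415546 for Adh4 and chr3:138442843-138443142 for Adh5, which has 2 listed starts, the downstream one being shown.
Adh1: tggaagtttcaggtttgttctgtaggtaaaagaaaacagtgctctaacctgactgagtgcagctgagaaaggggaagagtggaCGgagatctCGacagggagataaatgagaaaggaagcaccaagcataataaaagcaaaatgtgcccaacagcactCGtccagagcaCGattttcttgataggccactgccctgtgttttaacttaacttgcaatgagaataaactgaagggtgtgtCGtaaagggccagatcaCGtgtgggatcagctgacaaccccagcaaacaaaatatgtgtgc
Adh4: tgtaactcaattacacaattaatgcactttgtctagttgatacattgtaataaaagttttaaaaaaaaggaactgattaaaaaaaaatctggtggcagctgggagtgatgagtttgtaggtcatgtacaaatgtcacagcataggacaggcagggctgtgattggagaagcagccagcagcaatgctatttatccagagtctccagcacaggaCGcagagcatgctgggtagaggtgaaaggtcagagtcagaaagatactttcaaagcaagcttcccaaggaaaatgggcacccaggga
Adh5: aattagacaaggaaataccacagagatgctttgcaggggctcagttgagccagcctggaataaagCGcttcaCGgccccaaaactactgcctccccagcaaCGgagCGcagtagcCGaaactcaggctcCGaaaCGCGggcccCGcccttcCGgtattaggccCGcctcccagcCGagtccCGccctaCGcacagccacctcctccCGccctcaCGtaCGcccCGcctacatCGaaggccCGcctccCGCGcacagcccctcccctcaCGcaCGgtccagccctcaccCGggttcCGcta
The Adh5 promoter held 26 CpG and was 65% G and C, above the upper quartile of all promoters in the table for both measures (20 CpG and 61.7%). The window at its other, upstream start, not printed, held 3 CpG at 47% and so lay close to Adh1 and Adh4 in base composition, and it held TATAAA. The richer window was chosen for printing after both were seen. The Adh1 promoter held 6 CpG at 45.3% G and C, and the Adh4 promoter 1 CpG at 42.3%, both below the lower quartile of 45.7% for base composition. The core of the antioxidant response element, TGACNNNGC on either strand, was in none of the 3 windows and in 12.4% of 32851 promoters. An E-box (CACGTG, both strands) began at base 5 after the Adh1 start, and 7.15% of all promoters held one. The forkhead motif GTAAACA (3.65% of all promoters) and TATAAA (8.32%, gene strand only) were in none of the 3.

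More members passed between feeding states than between genotypes. Averaged over genotypes, 10 of 44 members passed (22.7%, against 13.6% of all genes), 4 higher and 6 lower after refeeding. Of all genes, 7.86% passed as higher and 5.77% as lower. A gene passed where limma gave a p below 0.05 after Benjamini-Hochberg adjustment across the 18194 genes. Those higher were Adh1, Adh4, Adh6-ps1 and Aox1, and those lower were Adh5, Aldh1l1, Aldh7a1, Aldh8a1, Aldh9a1 and Akr1c12. By family, 4 of 7 alcohol dehydrogenases, 4 of 20 aldehyde dehydrogenases, 1 of 14 aldo-keto reductases and 1 of 3 aldehyde oxidases passed. Genes above the median level passed more often. In a fit of these 9097 genes alone, 29.8% of them passed, and 11 of the 31 members among them. The median difference of the members was 0.02 on the log2 scale and that of all genes -0.0046, with 25 members reading higher and 19 lower.

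**Figure D1:**
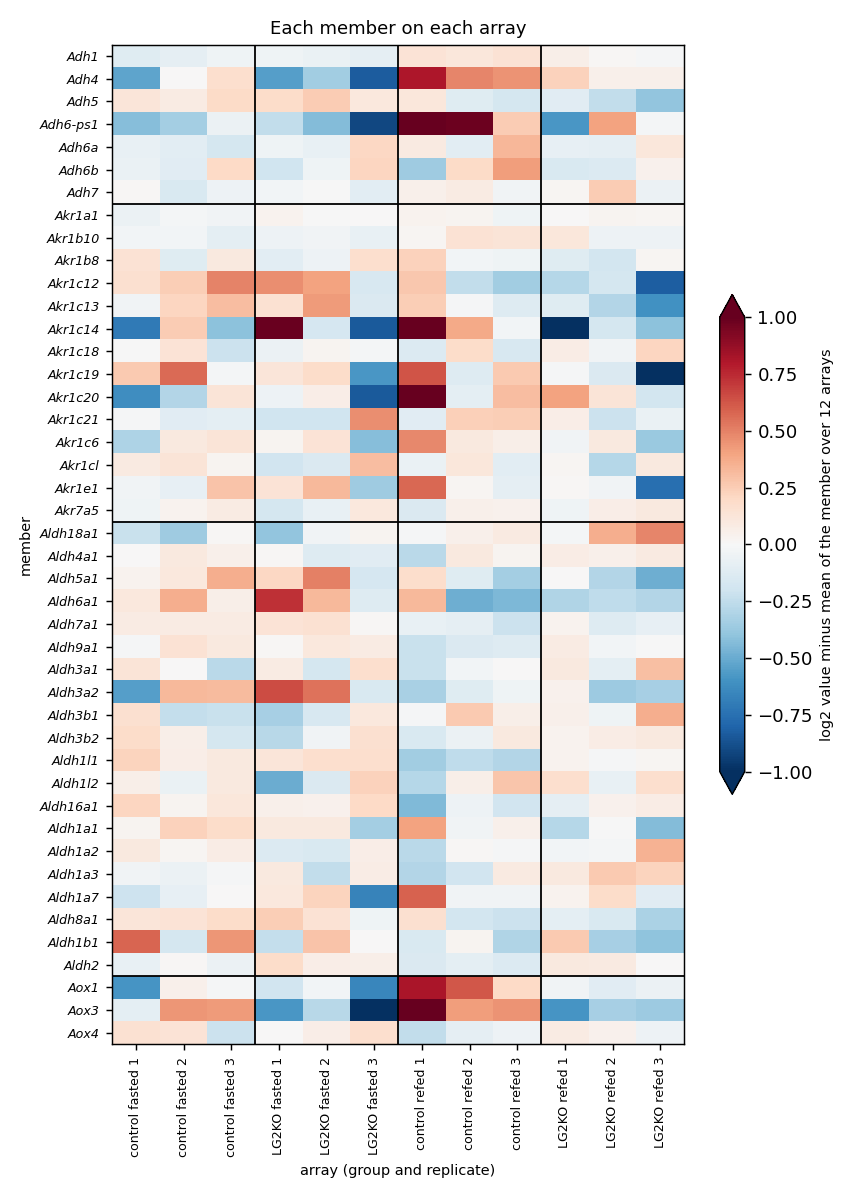
Each of the 44 members (rows, by family and role) on each of the 12 arrays (columns, by group and replicate). Colour gives the log2 value minus the member's mean over the 12 arrays, with values beyond 1 in either direction drawn at the end of the scale. Control refed array 1 held the highest value of 11 and the lowest of 5 of the 31 members above the median level. Of all 9097 genes above that level it held the highest value of 17.9% and the lowest of 22.7%.

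Within control livers alone, 5 of 44 members passed between refed and fasted arrays (6.46% of all genes did): Adh1, Adh4 and Adh6-ps1 were higher (3.29% of all genes) and Aldh1l1 and Aldh9a1 lower (3.17%). Within LG2KO livers, 2 of 44 passed (7.05% of all genes), Adh4 higher (4.66% of all genes) and Adh5 lower (2.40%). The 3 refed and 3 fasted arrays did not overlap for 11 members in control livers (20.5% of all genes) and for 9 in LG2KO livers (22.5%). The sign of the difference was the same in both genotypes for 29 of 44 members, 65.9%, and for 63.3% of all genes. The averaged comparison uses the arrays of both and is not independent of them. Aox1, Aldh7a1, Aldh8a1 and Akr1c12 passed in it and in neither genotype alone.

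Adh1, the main ethanol and retinol dehydrogenase of mouse liver, rose by a small and tightly measured step on refeeding. Its log2 level was 13.66, 13.70 and 13.74 in fasted controls and 13.93, 13.90 and 13.93 in refed controls. In LG2KO livers it was 13.74, 13.72 and 13.70 fasted and 13.85, 13.80 and 13.78 refed. All 6 refed arrays lay above all 6 fasted arrays. The 6 refed and 6 fasted arrays were separate, in either direction, for 7.24% of all genes. Among the members this held for Adh1 and, in the other direction, Aldh1l1. The rise was 0.15 ± 0.03 (SE) on the log2 scale averaged over genotypes (1.11-fold, adjusted p = 0.00203, limma). It was 0.22 ± 0.04 in controls (adjusted p = 0.0041, limma) and 0.09 ± 0.04 in LG2KO livers (adjusted p = 0.22, limma). The difference between these 2 rises was -0.13 ± 0.05 and did not pass. The averaged call held without any single array and was missed without the intensity trend (adjusted p = 0.0795, limma).

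Adh4, which also oxidises retinol and longer alcohols, rose more than Adh1 and did so in both genotypes. Fasted controls read 9.98, 10.51 and 10.67 and refed controls 11.31, 10.99 and 10.95. Fasted LG2KO livers read 9.96, 10.16 and 9.67 and refed LG2KO livers 10.73, 10.55 and 10.55. Within each genotype the refed arrays all lay above the fasted ones. The rise was 0.70 ± 0.17 in controls (adjusted p = 0.0287, limma) and 0.68 ± 0.17 in LG2KO livers (adjusted p = 0.0312, limma), and 0.69 ± 0.12 averaged over both, 1.62-fold (adjusted p = 0.00205, limma). The averaged call held without any single array. The call in controls was missed without any 1 of the 3 control refed arrays or without control fasted array 1 or 2 (adjusted p at most 0.105, limma). That in LG2KO livers was missed without any 1 of the 3 LG2KO refed arrays or without LG2KO fasted array 1 or 3 (at most 0.109).

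Adh6-ps1, annotated as a transcribed pseudogene of the cluster, was a dim transcript that read higher after refeeding. Its level was 4.21, 4.31 and 4.58 in fasted controls and 6.01, 5.62 and 4.90 in refed controls. In LG2KO livers it was 4.39, 4.21 and 3.73 fasted and 4.06, 5.04 and 4.62 refed, where the groups overlapped. The difference was 1.15 ± 0.29 in controls (adjusted p = 0.0341, limma) and 0.80 ± 0.21 averaged over genotypes (adjusted p = 0.0199, limma). Without control refed array 1, control refed array 2, LG2KO refed array 3, LG2KO fasted array 2 or any 1 of the 3 control fasted arrays the call in controls was missed (adjusted p at most 0.128, limma). The averaged call was missed without control refed array 2, LG2KO refed array 2 or control fasted array 1 (at most 0.0524). Its sequence is close to those of the other Adh genes, and binding of their transcripts to its probes was not tested.

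Adh5, which handles formaldehyde and nitrosothiols bound to glutathione, went the other way. It read 12.67, 12.63 and 12.74 in fasted controls and 12.67, 12.43 and 12.38 in refed controls, where control refed array 1 sat among the fasted arrays. LG2KO livers read 12.73, 12.81 and 12.65 fasted and 12.43, 12.31 and 12.16 refed, without overlap. It fell by 0.43 ± 0.09 in LG2KO livers (adjusted p = 0.00899, limma) and by 0.31 ± 0.06 averaged over genotypes (1.24-fold, adjusted p = 0.00418, limma). In controls the difference was -0.19 ± 0.09 and did not pass, and without both arrays that stand apart it was -0.28 ± 0.08 (adjusted p = 0.0362, limma). The genotypes were not shown to differ in this fall: the interaction was -0.24 ± 0.12. A much dimmer second probe set of Adh5, at a level of 3.77, gave -0.05 averaged over genotypes, and with the mean of both the call in LG2KO livers was missed (adjusted p = 0.137, limma).

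**Figure D2:**
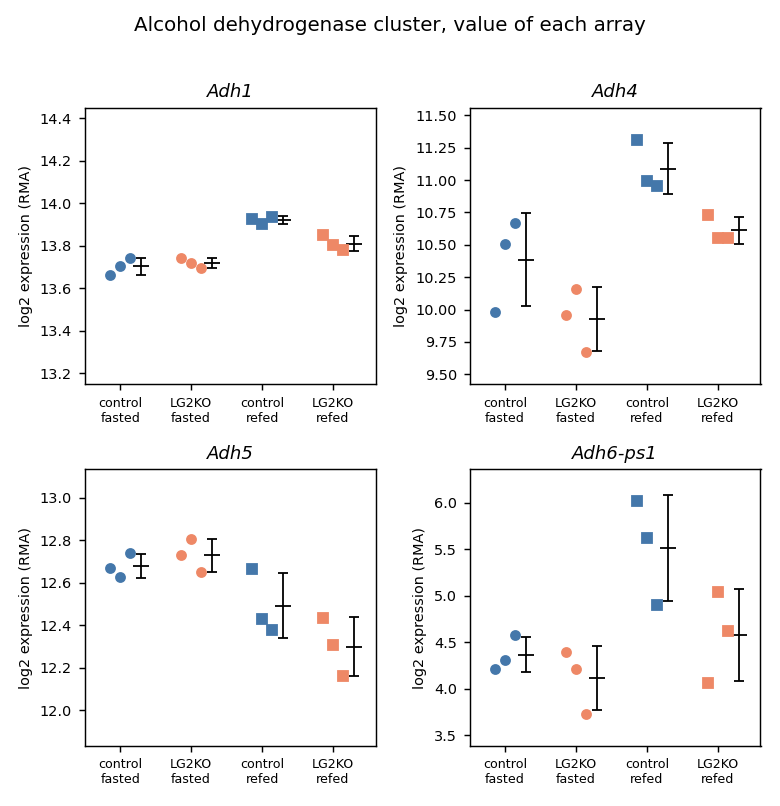
Log2 RMA level of Adh1, Adh4, Adh5 and Adh6-ps1 on each array, fasted as circles and refed as squares, control in blue and LG2KO in orange, with the group mean ± SD in black (n = 3 pools). The refed arrays lie above the fasted ones for Adh1 and Adh4 in both genotypes, and below them for Adh5 in LG2KO livers.

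The 3 other alcohol dehydrogenases did not pass on refeeding. Adh6a and Adh6b, both dim, differed by 0.09 ± 0.09 and 0.00 ± 0.13, and Adh7, an enzyme of stomach and other epithelia, by 0.11 ± 0.08, each averaged over genotypes.

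Among the aldehyde dehydrogenases, refeeding lowered 4 of 20 members and raised none that passed (5.77% of all genes were lower and 7.86% higher). In either direction 20% of the family passed, against 13.6% of all genes. In the fit of genes above the median level alone, 29.8% of those genes passed. Aldh1l1, the cytosolic formyltetrahydrofolate dehydrogenase that returns one-carbon units of folate to carbon dioxide, had the smallest adjusted p of all members. Fasted controls read 13.17, 13.01 and 13.04 and refed controls 12.60, 12.69 and 12.65. Fasted LG2KO livers read 13.07, 13.11 and 13.11 and refed LG2KO livers 12.98, 12.94 and 12.96. All 6 refed arrays lay below all 6 fasted ones. The fall was 0.28 on the log2 scale averaged over genotypes (-0.28 ± 0.04, 1.22-fold, adjusted p = 0.000233, limma) and held without any single array. It was -0.43 ± 0.05 in controls (adjusted p = 0.000333, limma) and -0.14 ± 0.05 in LG2KO livers, which did not pass. A second probe set of Aldh1l1, with a mean level of 6.98, gave 0.00 ± 0.11 for the averaged comparison, and the mean of both probe sets did not pass (adjusted p = 0.253, limma).

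Of the other 3 that fell on refeeding, Aldh7a1 and Aldh9a1 were grouped under amino acid, amine and proline pathways. In that group 2 of 6 members passed. Aldh8a1 was grouped with the retinal and retinoid aldehydes, where 1 of 5 passed (13.6% of all genes passed). Aldh7a1, which works in lysine breakdown, read 12.49, 12.48 and 12.48 in fasted controls, 12.32, 12.31 and 12.19 in refed controls, 12.53, 12.55 and 12.41 in fasted LG2KO livers and 12.44, 12.27 and 12.32 in refed LG2KO livers. The groups were separate in controls and met in LG2KO livers, where one refed array lay above the lowest fasted one. It fell by 0.18 ± 0.04 (adjusted p = 0.014, limma), a call that held without any single array, while its 2 dimmer probe sets gave -0.04 and 0.03 and the mean of all 3 did not pass (adjusted p = 0.681, limma), nor did the chosen one without the intensity trend. Aldh9a1, which makes a precursor of carnitine and also oxidises aminobutyraldehyde, read 12.65, 12.81 and 12.76 in fasted controls and 12.44, 12.52 and 12.53 in refed controls. In LG2KO livers it read 12.67, 12.77 and 12.74 fasted and 12.75, 12.64 and 12.66 refed, so the groups were separate in controls and overlapped in LG2KO livers. The difference was -0.24 ± 0.06 in controls (adjusted p = 0.0219, limma) and -0.15 ± 0.04 averaged over genotypes (adjusted p = 0.0297, limma). The control call was missed without control refed array 2 or control fasted array 2 or 3 (adjusted p at most 0.1, limma). The averaged one was missed without arrays 2 or 3 of LG2KO refed, control fasted or LG2KO fasted, or array 2 of control refed (at most 0.0808). Both calls were also missed without the intensity trend and with the mean of both probe sets of Aldh9a1 (at most 0.126 in controls and 0.141 averaged). The control call was missed with only the compared groups too. The averaged one was missed with centred arrays and without both arrays that stand apart.

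Aldh8a1, an enzyme of the kynurenine route of tryptophan that also acts on retinal, fell by 0.27 ± 0.07 averaged over genotypes (adjusted p = 0.0311, limma). Its values were 11.76, 11.78 and 11.83 in fasted controls, 11.80, 11.46 and 11.43 in refed controls, 11.89, 11.79 and 11.60 in fasted LG2KO livers and 11.55, 11.49 and 11.33 in refed LG2KO livers. Control refed array 1 again sat with the fasted arrays, and the LG2KO groups did not overlap. The call passed in 3 of 12 fits that each left out 1 array, those without control refed array 1, LG2KO refed array 1 or LG2KO fasted array 3, and was missed in the other 9 (adjusted p at most 0.0828, limma). Its second probe set gave -0.19 ± 0.11.

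Of the amino acid enzymes that did not pass, Aldh6a1 and Aldh5a1 read lower after refeeding and Aldh4a1 and Aldh18a1 higher. Aldh6a1, which serves valine and thymine breakdown, read 10.48, 10.73 and 10.43 in fasted controls, 10.69, 9.88 and 9.92 in refed controls, 11.10, 10.70 and 10.24 in fasted LG2KO livers and 10.07, 10.12 and 10.08 in refed LG2KO livers. Its difference was -0.49 ± 0.16 (adjusted p = 0.0612, limma), and -0.73 ± 0.08 without both arrays that stand apart (adjusted p = 9.55e-05, limma). Aldh5a1, which clears succinate semialdehyde, gave -0.35 ± 0.13, and -0.51 ± 0.11 without those arrays (adjusted p = 0.0059, limma). Aldh4a1, of proline breakdown, gave 0.03 ± 0.07. Aldh18a1, which makes proline rather than breaking it down, gave 0.32 ± 0.11 (adjusted p = 0.0773, limma). Without both arrays that stand apart Aldh18a1 gave 0.38 ± 0.12 and passed (adjusted p = 0.03815, limma). Its chosen probe set, 1 of 5, had a mean level of 4.65, below the median of all genes.

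Aldh2, Aldh1a1 and Aldh3a2, outside the amino acid, amine and proline group, did not pass on refeeding with all 12 arrays. Aldh2, the mitochondrial enzyme that clears acetaldehyde, differed by -0.06 ± 0.04. Aldh1a1, which turns retinal into retinoic acid, read 12.19, 12.40 and 12.36 in fasted controls, 12.57, 12.14 and 12.22 in refed controls, 12.27, 12.26 and 11.83 in fasted LG2KO livers and 11.89, 12.17 and 11.73 in refed LG2KO livers, and differed by -0.10 ± 0.10. Without both arrays that stand apart this was -0.24 ± 0.08 and passed (adjusted p = 0.0392, limma). Aldh3a2, the fatty aldehyde dehydrogenase, read 9.57, 10.45 and 10.44 in fasted controls, 9.80, 9.998 and 10.08 in refed controls, 10.77, 10.66 and 9.97 in fasted LG2KO livers and 10.16, 9.76 and 9.79 in refed LG2KO livers, a difference of -0.38 ± 0.17. In both genes the fasted and refed arrays overlapped in either genotype.

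**Figure D3:**
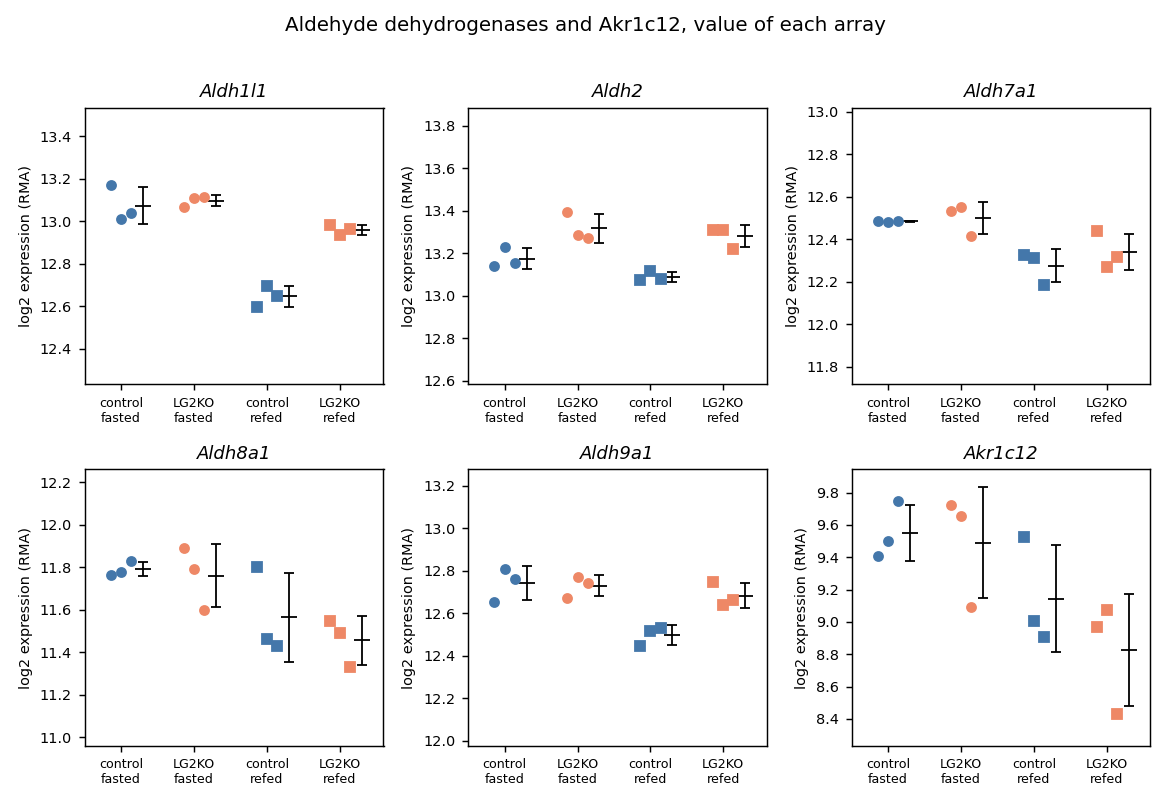
Log2 RMA level of Aldh1l1, Aldh2, Aldh7a1, Aldh8a1, Aldh9a1 and Akr1c12 on each array, fasted as circles and refed as squares, control in blue and LG2KO in orange, with the group mean ± SD in black (n = 3 pools). For Aldh1l1 the 3 control refed arrays, at 12.60 to 12.69, lie below every other array.

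Of the 14 aldo-keto reductases, Akr1c12 alone passed on refeeding (7.14%, against 13.6% of all genes). The 8 Akr1c genes, which reduce keto groups of steroids and prostaglandins, lie together on chromosome 13 in the same assembly. Akr1c12 read 9.41, 9.50 and 9.75 in fasted controls and 9.52, 9.005 and 8.91 in refed controls. In LG2KO livers it read 9.72, 9.66 and 9.09 fasted and 8.97, 9.08 and 8.43 refed. The LG2KO groups were separate by a narrow gap and the control groups overlapped through control refed array 1. It fell by 0.54 ± 0.15 (1.45-fold, adjusted p = 0.0341, limma). The call was missed without control refed array 2 or 3, LG2KO refed array 3, control fasted array 2 or 3 or LG2KO fasted array 1 or 2 (adjusted p at most 0.0873, limma). Its close copy Akr1c13 gave -0.31 ± 0.12 (adjusted p = 0.118, limma), and a probe set tied to both symbols -0.41 ± 0.12 (adjusted p = 0.0623, limma), so the 2 genes cannot be told apart with certainty here. Without both arrays that stand apart Akr1c13 gave -0.43 ± 0.10 and passed (adjusted p = 0.0102, limma).

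The rest of the family held no refeeding call. Akr1a1, the general aldehyde reductase, spanned 0.0966 log2 units over all 12 arrays. Akr1c20 gave 0.54 ± 0.22 from its bright probe set, and a dimmer one, at a level of 4.10, gave 0.87 ± 0.16 (adjusted p = 0.00403 over all probe sets, limma). Akr1c6, a hydroxysteroid dehydrogenase of liver, read 12.29, 12.70 and 12.74 in fasted controls, 13.09, 12.70 and 12.67 in refed controls, 12.63, 12.74 and 12.18 in fasted LG2KO livers and 12.57, 12.70 and 12.24 in refed LG2KO livers. Its groups overlapped in both genotypes and the difference was 0.11 ± 0.12, which turned to -0.04 ± 0.10 without both arrays that stand apart.

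Both aldehyde oxidases that lie above the median level are neighbours on chromosome 1. Aox1 rose on refeeding and Aox3, the main aldehyde oxidase of mouse liver, fell in LG2KO livers, and their promoters are shown to set these neighbours side by side. They are chr1:58029719-58030018 for Aox1 and chr1:58112886-58113185 for Aox3, on the plus strand of GRCm38.p6, from RefSeq, with CpG in capitals.
Aox1: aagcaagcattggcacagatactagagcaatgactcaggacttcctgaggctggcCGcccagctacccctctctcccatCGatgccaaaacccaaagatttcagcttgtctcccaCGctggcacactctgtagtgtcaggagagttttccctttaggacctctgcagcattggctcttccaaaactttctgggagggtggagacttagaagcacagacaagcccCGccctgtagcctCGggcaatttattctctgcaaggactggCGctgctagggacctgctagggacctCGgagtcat
Aox3: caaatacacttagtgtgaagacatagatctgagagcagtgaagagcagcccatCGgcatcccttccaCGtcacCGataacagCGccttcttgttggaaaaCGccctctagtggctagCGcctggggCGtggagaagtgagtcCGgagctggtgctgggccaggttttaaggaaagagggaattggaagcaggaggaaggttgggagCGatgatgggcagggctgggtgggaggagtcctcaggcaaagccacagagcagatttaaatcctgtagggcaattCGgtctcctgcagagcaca
The Aox1 window held 7 CpG and was 54.3% G and C, and the Aox3 window 10 CpG at 55.0%, near the medians of all promoters (7 CpG and 52.7%). TGACNNNGC and CACGTG, searched on both strands, were in neither, nor were GTAAACA or TATAAA.

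Aox1 read 8.95, 9.59 and 9.53 in fasted controls and 10.35, 10.16 and 9.74 in refed controls, with no overlap. In LG2KO livers it read 9.34, 9.51 and 8.88 fasted and 9.50, 9.42 and 9.48 refed, and the groups overlapped. The rise was 0.47 ± 0.14 averaged over genotypes (1.39-fold, adjusted p = 0.0447, limma), with 0.73 ± 0.20 in controls (adjusted p = 0.0521, limma) and 0.22 ± 0.20 in LG2KO livers. The averaged call held in 3 of 12 fits that each left out 1 array, those without control refed array 3, control fasted array 2 or LG2KO fasted array 2, and was missed in the other 9 (adjusted p at most 0.101, limma). Without both arrays that stand apart it was 0.32 (adjusted p = 0.089, limma). Aox3 did not pass on refeeding (0.40 ± 0.21, and 0.09 ± 0.11 without those arrays), and Aox4 was at the bottom of the scale.

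Between genotypes few members passed. Averaged over feeding states, 2 of 44 passed (4.55%, against 1.02% of all genes): Aox3 was lower (0.280% of all genes) and Aldh2 higher (0.737%) in LG2KO livers. With only genes above the median level fitted, 2.46% of them passed, and 3 of the 31 members among them. After refeeding, 1 of 44 passed (0.379% of all genes), Aldh1l1, which was higher, as were 0.291% of all genes. In the fasted state 0 of 44 passed with limma (0.396% of all genes), and 0 in every other setting run. There, 3 of 44 members had an unadjusted p below 0.05, as did 946 of the 18194 genes. The refed arrays of the 2 genotypes did not overlap for 10 members, 5 in each direction (15.4% of all genes, 10.3% higher and 5.19% lower), and the fasted ones for 3, Aox3, Aldh2 and Akr1a1 (10.8%). The refed genotype comparison and the control refeeding comparison share the control refed arrays. The sign was the same in both feeding states for 28 of 44 members, 63.6%, and for 53.9% of all genes.

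**Figure D4:**
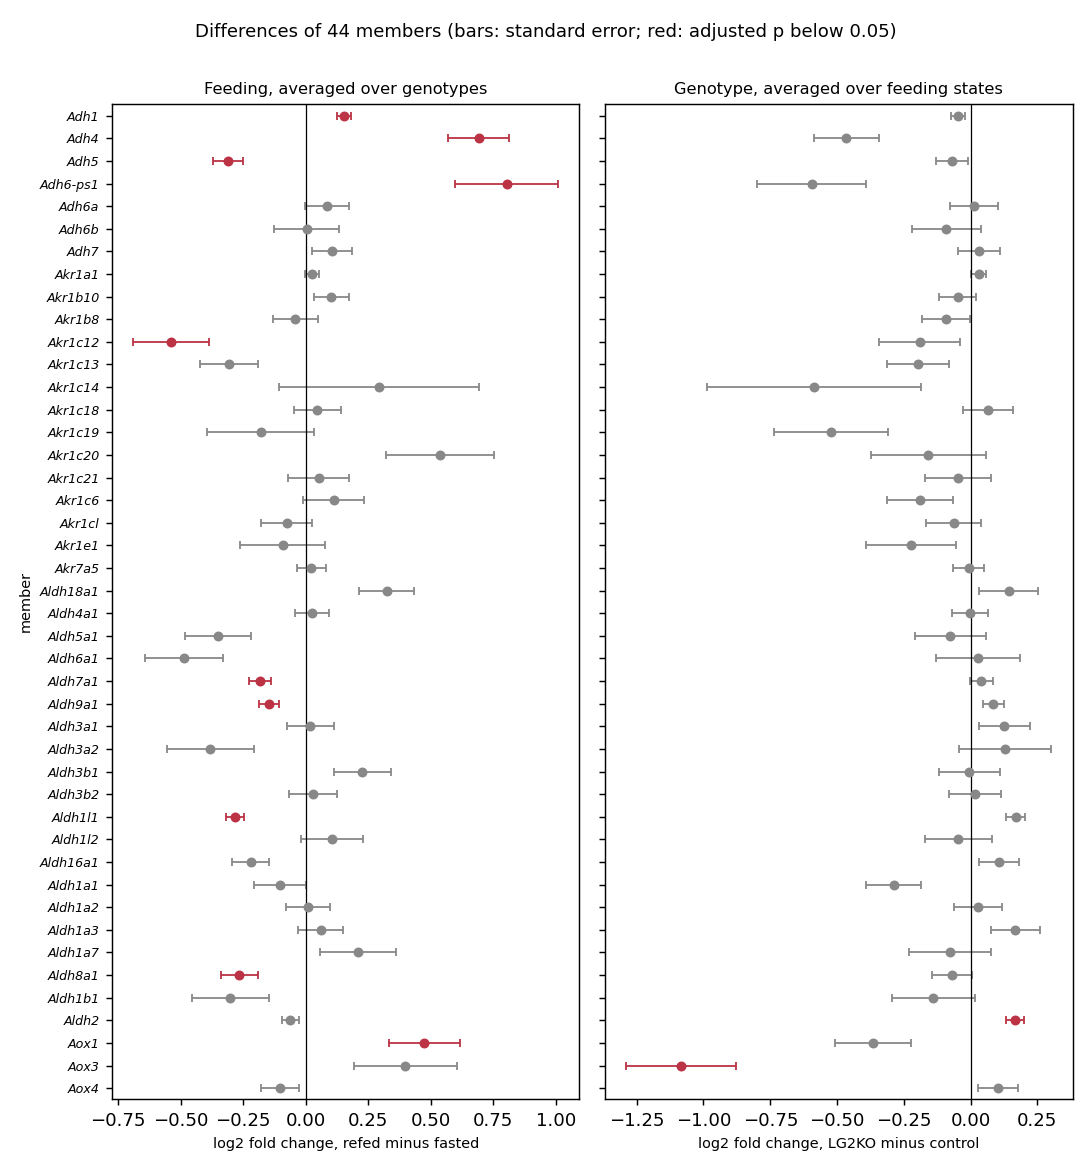
Log2 fold change of each of the 44 members, refed minus fasted averaged over genotypes (left) and LG2KO minus control averaged over feeding states (right), as points with the standard error as bars, red where the adjusted p was below 0.05. Of the members, 10 are red on the left and 2, Aldh2 and Aox3, on the right.

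Aox3 showed the largest genotype difference among the members averaged over feeding states. Controls read 10.49, 11.03 and 11.02 fasted and 12.19, 11.01 and 11.04 refed. LG2KO livers read 10.01, 10.32 and 9.48 fasted and 10.002, 10.26 and 10.23 refed. Each of the 6 LG2KO arrays was lower than each of the 6 control arrays. The 6 arrays of each genotype were separate, in either direction, for 0.764% of all genes and no other member. Aox3 fell by 1.08 ± 0.21 in LG2KO livers (2.12-fold, adjusted p = 0.0279, limma). Within each feeding state alone it did not pass: -1.25 ± 0.29 refed (adjusted p = 0.121, limma) and -0.91 ± 0.29 fasted (adjusted p = 0.478, limma). Part of the size lay in control refed array 1, at 12.19. Without it and LG2KO fasted array 3 the difference was -0.77 ± 0.11 (adjusted p = 0.00601, limma). Leaving out single arrays gave -1.18 to -0.89, and the call was missed without any 1 of the 3 LG2KO refed arrays, control fasted array 2 or 3 or LG2KO fasted array 1 or 3 (adjusted p at most 0.0903, limma). It was also missed with a robust prior (adjusted p = 0.0509, limma).

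Aox1 gave -0.36 averaged over feeding states and did not pass, with -0.62 in refed livers, where all 3 LG2KO arrays lay below all 3 controls.

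**Figure D5:**
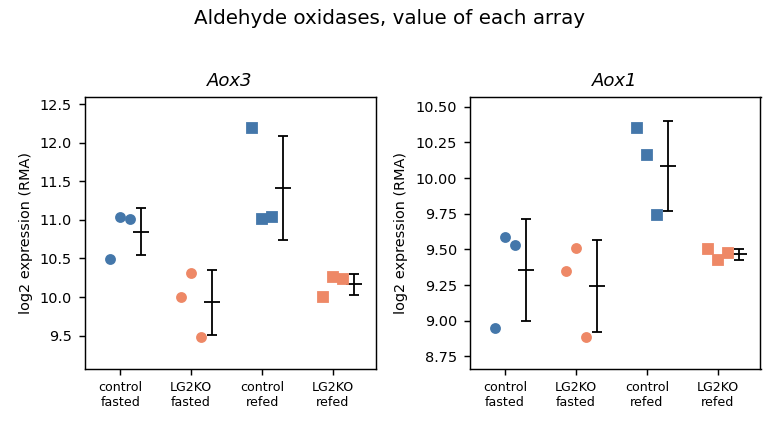
Log2 RMA level of Aox3 and Aox1 on each array, fasted as circles and refed as squares, control in blue and LG2KO in orange, with the group mean ± SD in black (n = 3 pools). For Aox3 every LG2KO array lies below every control array, and control refed array 1 stands at 12.19.

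Aldh1l1 was higher in refed LG2KO than in refed control livers. The LG2KO refed arrays, at 12.94 to 12.98, all lay above the control refed arrays, at 12.60 to 12.69. The difference was 0.31 ± 0.05 (1.24-fold, adjusted p = 0.0335, limma), against 0.02 in fasted livers. The call was missed without any 1 of the 6 refed arrays, control fasted array 3 or LG2KO fasted array 1 or 2 (adjusted p at most 0.115, limma), while the difference stayed between 0.29 and 0.34, and without both arrays that stand apart (adjusted p = 0.0662, limma). With the same arrays it was missed without the intensity trend (adjusted p = 0.193, limma), with only the refed groups (0.239), and with the mean of both probe sets, 0.21 ± 0.10 (0.555). The interaction, which asks whether refeeding lowered the gene less in LG2KO livers, was 0.29 ± 0.07 with an unadjusted p of 0.00182 and an adjusted p of 0.574 (limma).

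Aldh2 read slightly higher in LG2KO livers in both feeding states and passed on their average. Controls read 13.14, 13.23 and 13.15 fasted and 13.07, 13.12 and 13.08 refed, and LG2KO livers 13.40, 13.28 and 13.27 fasted and 13.31, 13.31 and 13.22 refed. The genotypes did not overlap within either feeding state. The rise was 0.17 ± 0.04 (1.12-fold, adjusted p = 0.0452, limma). It passed in 0 of 12 fits that each left out 1 array (adjusted p from 0.0551 to 0.123, limma) and in 2 of 8 other settings. The 4 other probe sets of Aldh2 gave 0.12, 0.16, -0.16 and 0.47 ± 0.09.

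The alcohol dehydrogenases held no genotype call, and 6 of 7 read lower in refed LG2KO livers, as did 44.1% of all genes. Adh4 gave -0.47 averaged over feeding states (adjusted p = 0.125, limma), and its refed LG2KO arrays, at 10.55 to 10.73, all lay below the refed controls, at 10.95 to 11.31. Adh1 gave -0.11 ± 0.04 in refed livers (adjusted p = 0.35, limma), again with no overlap. Adh6-ps1 gave -0.94 ± 0.29 there (adjusted p = 0.278, limma).

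Of the 14 aldo-keto reductases 11 read lower in refed LG2KO livers, with a median of -0.25 against 0.02 for all genes, and none passed. Among the 8 Akr1c genes 7 read lower, with a median of -0.32. Without the arrays that stand apart the medians were -0.13 for the family and -0.22 for the Akr1c genes. In fasted livers the family's median was -0.02, with 10 of 14 lower, and without those arrays 0.03, with 5 of 14 lower. Akr1c14, a hydroxysteroid dehydrogenase, carried the largest value and the widest error. Refed controls read 9.03, 7.13 and 6.72 and refed LG2KO livers 5.60, 6.58 and 6.34. Fasted controls read 6.04, 7.01 and 6.34 and fasted LG2KO livers 7.74, 6.58 and 5.91. The refed groups did not overlap, and the difference was -1.45 ± 0.57 (adjusted p = 0.438, limma), with control refed array 1 at 9.03. Without the arrays that stand apart it was -0.75 ± 0.37. Akr1c19 gave -0.68 ± 0.30 in refed livers (adjusted p = 0.522, limma).

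No member passed the test of whether the response to feeding differed between genotypes. With limma 0 of 44 passed this interaction (0.0055% of all genes), and 0 in every other setting run. Its unadjusted p was below 0.05 for 3 of 44 members and for 861 of the 18194 genes. A p that misses the threshold does not show that the responses were alike.

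Other genes of the same pathways were read from lists. Of 6 measured genes of ethanol and acetate handling, 2 passed on refeeding averaged over genotypes, both lower (13.6% of all genes passed). Acot12, which splits acetyl-CoA to acetate, fell by 0.97 ± 0.09 (adjusted p = 1.07e-05, limma). Of 24 retinoid genes, 4 were higher and 4 lower. Cyp26a1, which breaks down retinoic acid, was 2.38 ± 0.16 higher (adjusted p = 1.42e-06, limma) and Rdh11, a retinal reductase, 1.24 ± 0.13 higher, while Rdh9 fell by 0.74 ± 0.14. Of 21 carbonyl reductases and short-chain dehydrogenases, 5 were higher and 1 lower, with Hsd3b5, a steroid reductase of male liver, 3.02 ± 0.24 higher.

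The lists nearest to the aldo-keto reductases and aldehyde oxidases moved as follows on refeeding, averaged over genotypes. Of all genes, 7.86% passed as higher and 5.77% as lower. Of 18 genes linked to NRF2, the oxidative stress factor, 9 passed and all 9 were higher, among them Osgin1 at 1.24 ± 0.12 and Gstm3, a glutathione transferase, at 1.51 ± 0.20. Their median difference was 0.15, against -0.0046 for all genes. Of 9 genes of molybdenum enzymes and their cofactor 1 was higher and 2 lower. The one higher was Mocos, the sulfurase that makes the cofactor of aldehyde oxidase active, at 0.43 ± 0.08 (adjusted p = 0.00319, limma). Of 10 periportal genes 5 were lower and 1 higher, and of 12 pericentral genes 2 were higher and 1 lower.

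Averaged over feeding states, 3 of 21 carbonyl reductases and short-chain dehydrogenases passed between genotypes (14.3%, against 1.02% of all genes), 1 higher and 2 lower. The retinoid, NRF2 and pericentral lists held 1 call each, all lower. Hsd3b5 fell by 2.11 ± 0.24 in LG2KO livers averaged over feeding states (adjusted p = 0.00112, limma). Dhrs7, a short-chain dehydrogenase, was 0.59 ± 0.09 higher, and this call was missed when all probe sets of a gene were averaged (adjusted p = 0.253, limma). Hsd17b11, which oxidises steroids at lipid droplets, fell by 0.48 ± 0.09 (adjusted p = 0.0305, limma). This call held without control refed array 1, LG2KO refed array 1, control fasted array 1 or LG2KO fasted array 1 or 3. It was missed without any other single array (at most 0.0979). It was also missed with the mean of all probe sets, without the intensity trend and with centred arrays (at most 0.2065). Rdh11 fell by 0.59 ± 0.13 (adjusted p = 0.049, limma). Its call was kept without control refed array 1 or LG2KO refed array 3 and missed without any other single array (at most 0.15). It was also missed without the intensity trend, with the replicate number as a block and with centred arrays (at most 0.0826). Gsta4, a glutathione transferase of lipid aldehydes, fell by 0.51 ± 0.10 (adjusted p = 0.033, limma) and kept its call without array 1 of either refed group only (at most 0.0836). Cyp1a2, a pericentral cytochrome, fell by 0.63 ± 0.08 (adjusted p = 0.00163, limma). The molybdenum, ethanol and periportal lists held 0 genotype calls with limma. Of their 9, 6 and 10 measured genes, 1, 0 and 2 had an unadjusted p below 0.05, as did 1612 of the 18194 genes.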

How the data were processed

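The data were 12 arrays of pooled mouse liver RNA. The deposited values are log2 expression per probe set, which the authors made with RMA, per the submitters' processing notes. No label read here names the software or its version. RMA brings all arrays to 1 distribution, which limits what can be said of a change in total RNA. Of 45101 probe sets, 34958 had 1 symbol, 932 had several and 9211 were unlisted in the platform annotation. All 44 members matched the RefSeq table of GRCm38.p6 by Entrez number.

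Differences were fitted with limma 3.58.1 in R 4.3.3 (lmFit, eBayes with an intensity trend, 1 mean per group, all 12 arrays, 8 residual degrees of freedom, two-sided), for 7 comparisons, with no filter on dim genes. The fit was tested on simulated data. Values on every array are given for all members that passed and for Adh1, Adh4, Aldh2, Aldh1a1, Aldh3a2, Akr1c6 and Aox3. Array values of Aldh6a1 and Akr1c14 and the further single values were chosen after they were seen, as were the E-box, forkhead and TATA searches. The members and lists were chosen with earlier results of these data known. Alternatives covered the fit, the probe set rule, scaling, and arrays left out. Promoters were found for 35 of the members.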

Additional observations from a re-analysis of the deposited data

How the results depend on the processing

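None of the 20 values that passed changed sign in any alternative run. Of the 288 that did not pass, 46 changed sign without both arrays that stand apart and 39 with array weights. Some settings leave every fold change as it is, so no sign could change in them. They drop the intensity trend, use a robust prior or replicate block, or fit only genes above the median level or the compared groups. The limits of these data are 3 pools per group, no detection calls for dim probe sets, close copies among the Adh and Akr1c genes, and the arrays that stand apart, control refed array 1 and LG2KO fasted array 3. Counts below are of passing members, of 44. Leaving out 1 array at a time gave 0 to 1 for LG2KO against control refed, 0 to 3 for genotype averaged over feeding states, 2 to 6 for refeeding in controls, 1 to 5 for refeeding in LG2KO livers and 6 to 12 for refeeding averaged over genotypes. Fasted genotype and interaction gave 0 in every setting run.

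Without the intensity trend, counts were 0 for genotype refed, 3 for refeeding in controls, 1 for averaged genotype and 5 for averaged refeeding. Array weights gave 2 for genotype refed, 11 and 10 for refeeding in control and LG2KO livers, and 16 averaged. The mean of all probe sets gave 0 for genotype refed, 3 and 1 for refeeding in control and LG2KO livers, and 1 for averaged genotype. A robust prior gave 0 for averaged genotype, and centred arrays 1 there and 6 for averaged refeeding. Only the compared groups gave 0 for genotype refed and 2 for refeeding in controls. Without both arrays that stand apart, counts were 0 for genotype refed, 9 for refeeding in either genotype (12.1% and 17.5% of all genes), 1 for averaged genotype and 14 for averaged refeeding (25.2% of all genes). Of the 10 averaged refeeding calls 8 were among these 14. The cause of these moves was not tested.

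Replicate numbers were not shown to pair the arrays: same-numbered arrays of 2 groups had correlated deviations of -0.464 to 0.769 (median -0.085 over 18 pairs). Arrays with different numbers had -0.814 to 0.609 (median 0.0253 over 36 pairs). The values 0.769 and -0.814 both came from pairs with LG2KO fasted array 3, which stands apart. With the number as a replicate block, counts were 0 for genotype refed, 0 for averaged genotype, 1 for refeeding in LG2KO livers and 12 for averaged refeeding. The calls missed with the block were Aox3 and Aldh2 for averaged genotype (adjusted p = 0.0502 and 0.0542, limma), Aldh1l1 for genotype refed (0.0512) and Adh4 for refeeding in LG2KO livers (0.0507).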
